A study of Mus musculus with 147 samples.

Results

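The stimulatory G protein alpha subunit Gnas and 8 membrane adenylyl cyclases, Adcy1 and Adcy3 to Adcy9, were followed through single renin-lineage cells of the mouse kidney with and without the renin gene. The members were taken by symbol from the gene column of the WT and the Renin-null count tables, and all 9 were found among 35438 genes. YFP-positive cells were sorted from the kidney cortex of adult Ren1c+/+ Ren1c-YFP mice (WT renin cells, 51 cells from 4 mice in 1 capture) and adult Ren1c-/- Ren1c-YFP mice (Renin-null cells, 96 cells from 12 mice in 4 captures). The strain of both genotypes was C57BL/6. YFP is driven in both genotypes by regulatory sequence of Ren1c, so the gate follows the activity of that sequence and not the renin protein. Mice with the Ren1c knockout allele had received saline under the skin in the first days after birth, and no such treatment is described for the WT mice. Cells were captured in wells of the Fluidigm C1 System, amplified with SMART-Seq v4 and indexed with Nextera XT, and a well below is the well of 1 captured cell. The Renin-null wells came in libraries named YFP1 and YFP2, with 48 wells each, and the WT wells in a library of their own. No label ties a well to a mouse or a capture, so each genotype is 1 sample, genotypes were not tested against each other, and an effect of the capture or the library cannot be told apart from one of the genotype.

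The wells were deep but uneven. WT wells held 26401 to 17124854 estimated counts (median 1525972), and Renin-null wells held 3628 to 14505243 (median 4107950). The median share of mitochondrial counts was 60.4% in WT wells and 12.4% in Renin-null wells. Ren1, the deleted gene, matched the labels: it was between 563 and 313965 CPM (counts per 1000000 counts) in the 51 WT wells with a median of 21402 CPM, and between 0 and 12.5 CPM in the 96 Renin-null wells with a median of 0. Akr1b7, an aldo-keto reductase that marks renin cells, had at least 10 counts in 51 WT and in 75 Renin-null wells. Smooth muscle genes (6 of 6 detected) summed to 10915 CPM over WT wells and to 11950 CPM over Renin-null wells, and mural genes (5 of 5 detected, led by Rgs5) to 12404 and 14807 CPM. Macrophage genes summed to 0.985 and 4.36 CPM, with Cd68, Lyz2, C1qa, C1qb and Adgre1 at 0 in WT and C1qb and Adgre1 at 0 in Renin-null wells. In 1 Renin-null well, cell 36 of YFP1, they reached 1044 CPM, and no cyclase was at 10 counts there. Endothelial genes summed to 38.3 CPM in WT, where Cdh5 and Egfl7 were at 0, and to 233 CPM in Renin-null wells, where all 7 were detected and Emcn led with 161 CPM. By library that sum was 29.1 CPM in YFP1, below WT, and 403 CPM in YFP2, and 3 Renin-null wells, all of YFP2, were above 1000 CPM. Markers of other kidney cells were also present. Fibroblast genes (5 of 5 detected in both, led by Col3a1 in Renin-null wells) summed to 9.21 CPM over WT wells and to 807 CPM over Renin-null wells, with 241 CPM in YFP1 and 1279 CPM in YFP2. Proximal tubule genes summed to 25.2 and 400 CPM (372 in YFP1 and 423 in YFP2), with Slc5a2 at 0 in WT. Podocyte genes summed to 86.1 and 559 CPM (143 in YFP1 and 906 in YFP2), with Podxl among those at 0 in WT. Loop and distal tubule genes summed to 0.515 and 109 CPM (189 in YFP1 and 42.95 in YFP2), with Pvalb at 0 in both, and collecting duct genes to 22.1 and 49.3 CPM, with 2.96 CPM in YFP1 and 87.9 CPM in YFP2. The part of these markers in the cyclase values was not tested.

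Before the results, 4 pairs of Renin-null wells need naming, because their profiles nearly repeat each other. Across 15498 genes, log2(CPM + 1) correlated at 0.987 between cells 46 and 94, 0.985 between cells 45 and 93, 0.983 between cells 47 and 95 and 0.964 between cells 48 and 96, while the next closest pair of wells reached 0.892. The first 3 pairs join a YFP1 well to a YFP2 well, and both wells of the last pair carry YFP2 in their labels. Cell 48 is the one YFP2 well listed among those of YFP1. Its label was used as given and whether it is right was not tested, so the library values that its 532 Adcy4 and 1016 Adcy9 counts move depend on it. Counting each pair once leaves 92 Renin-null wells, and the values that this moves most are also given in that way.

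Renin-producing cells sit in the wall of the afferent arteriole, where cyclic AMP is the main signal that drives renin synthesis and release. A hormone or nerve signal binds a receptor coupled to the stimulatory G protein, the released alpha subunit activates a membrane adenylyl cyclase, and the cyclase makes cyclic AMP from ATP. The cyclase isoforms share this reaction but differ in control: Adcy5 and Adcy6 are inhibited by calcium and by inhibitory G proteins, Adcy1, Adcy3 and Adcy8 respond to calmodulin, Adcy4 and Adcy7 are stimulated by G protein beta-gamma subunits, and Adcy9 is the isoform least sensitive to forskolin.

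The isoforms resemble each other in their catalytic parts, so the coding sequences were compared before counts were read as isoforms. In the 28 pairs of the 8 cyclases, the longest run of identical bases was between 12 and 33 bases (median 20), shorter than a sequencing read. The longest run is printed for the pair that holds it, Adcy4 and Adcy8, and for Adcy5 and Adcy6, the isoforms with the highest summed counts, which share 29 bases. Capitals mark the identical run and lower case the bases on either side, 5′ to 3′ on the coding strand of GRCm38 (GENCODE M21).
Adcy4, chr14:55770097-55770428, minus strand, over 2 exons: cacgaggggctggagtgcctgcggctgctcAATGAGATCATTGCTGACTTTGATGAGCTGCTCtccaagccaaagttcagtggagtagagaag
Adcy8, chr15:64704208-64704714, minus strand, over 2 exons: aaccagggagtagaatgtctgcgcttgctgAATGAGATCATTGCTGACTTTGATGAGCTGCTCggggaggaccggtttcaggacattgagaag
Adcy5, chr16:35298545-35299475, plus strand, over 2 exons: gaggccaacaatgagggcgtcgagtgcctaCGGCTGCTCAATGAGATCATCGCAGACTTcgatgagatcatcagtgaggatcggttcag
Adcy6, chr15:98593643-98594396, minus strand, over 2 exons: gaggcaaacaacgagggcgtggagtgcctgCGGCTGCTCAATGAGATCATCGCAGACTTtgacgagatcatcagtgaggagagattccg
The stretches begin at base 2683 of the Adcy4, 2998 of the Adcy8, 3265 of the Adcy5 and 2986 of the Adcy6 coding sequence, toward the 3′ end of each.

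Of all stretches of 31 bases in the transcripts of a gene, 99.5% or more occur in no other gene for Adcy1, Adcy4, Adcy5, Adcy7, Adcy8 and Adcy9. For 3 members the share was lower, because an antisense gene overlaps their exons and the libraries do not mark strand. It was 91.7% for Adcy6 (chr15:98589973-98610076, minus strand), which Gm29331 overlaps. It was 80.1% for Gnas (chr2:174284320-174346744, plus strand, 16 coding transcripts from several first exons), which Gm20721 and Nespas overlap, and Gm20721 itself had 1931 WT and 2080 Renin-null counts against 102553 and 178803 for Gnas. It was 79.9% for Adcy3 (chr12:4133103-4213525, plus strand), whose overlapping gene Cenpo, a centromere protein gene, had 119 WT and 19410 Renin-null counts.

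Gnas was the one member with at least 10 counts in most wells of each genotype. Its count ran from 0 to 20776 with a median of 16 in WT wells, from 0 to 13862 with a median of 30 in YFP1 wells, and from 0 to 36344 with a median of 322.5 in YFP2 wells. The ranges overlap almost fully, and each library had wells with over 1000 counts. At least 10 counts were found in 33 of 51 WT wells (64.7%, exact Clopper-Pearson interval 50.1% to 77.6%) and in 68 of 96 Renin-null wells (70.8%, interval 60.7% to 79.7%). These intervals on shares treat the wells of a genotype as independent draws, although the 96 Renin-null wells include 4 near-identical pairs. Intervals on ratios, given below, treat each count as independent. Amplified reads can be copies of the same molecule and carry no tag to tell, so those intervals are likely too narrow. Neither kind covers the spread between mice or captures. Summed over wells, Gnas reached 518 CPM in WT wells and 448 CPM in Renin-null ones, a log2 ratio of -0.21, with -0.60 in YFP1 and 0.05 in YFP2. When each well was thinned to 62000 counts, which left out 2 WT and 13 Renin-null wells, Gnas had a count in 29 of 49 WT wells and 56 of 83 Renin-null wells. With near-identical wells counted once, Gnas was at 413 CPM over Renin-null wells, with at least 10 counts in 65 of 92, and its log2 ratio was -0.33.

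**Figure D1:**
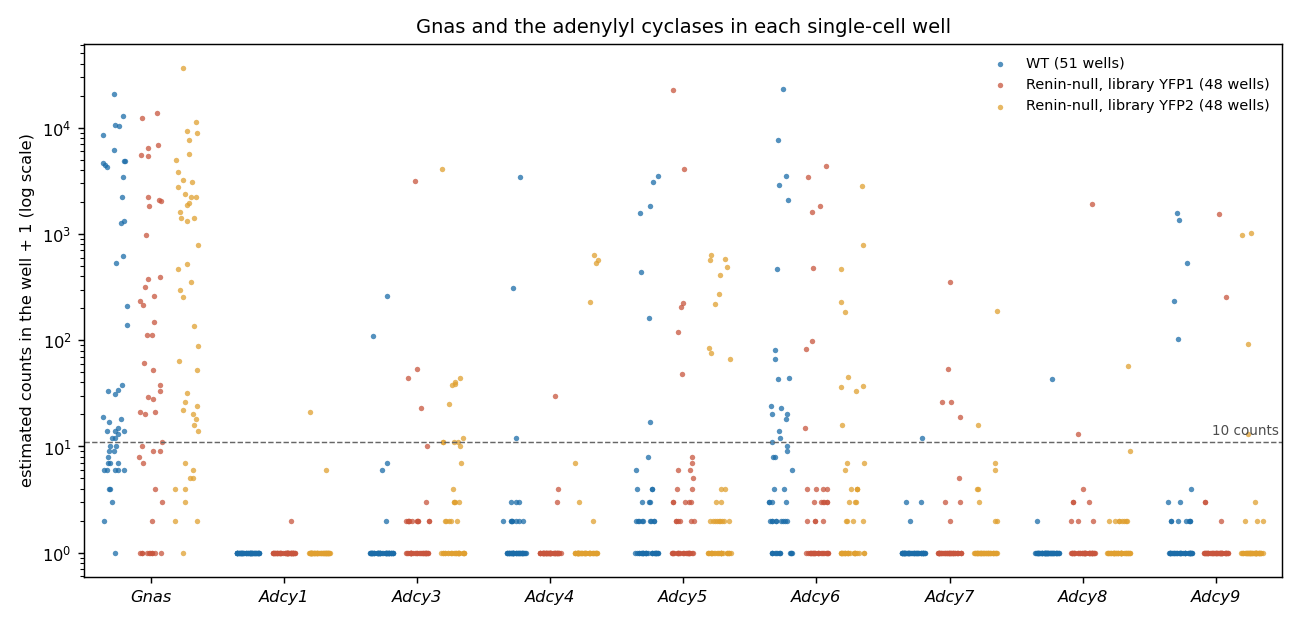
Each point is 1 well, with the estimated count plus 1 on a log scale for Gnas and 8 adenylyl cyclases in the WT library and the Renin-null libraries YFP1 and YFP2, and the dashed line marks 10 counts. Gnas is spread over the whole range in every library, while each cyclase has a median of at most 2 counts in every library and its highest well runs from 0 counts (Adcy1 in WT) to 22956 (Adcy6 in WT).

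No cyclase was as widespread as Gnas: over all wells each was at 10 counts or more in a minority of either genotype, and most of its counts lay in a handful of wells. Among the 15 WT wells with at least 100000 counts, 1000 genes and at most 25% mitochondrial counts, Adcy6 was at that count in a majority, 73.3%, with Adcy5 in 46.7% and Gnas in 93.3%, while Adcy5 and Adcy6 were each in 24.6% of the 57 Renin-null wells that passed. Some of the 15 WT wells held only 10 to 80 Adcy6 counts, and the tie of low counts to shared sequencing indexes is given below. Adcy6 (on chromosome 15, above) was the most frequent at 10 counts or more. In WT its count ran from 0 to 22956 with a median of 2, in YFP1 from 0 to 4323 with a median of 0, and in YFP2 from 0 to 2838 with a median of 0.5. The WT wells fell into a high and a low set: 22956, 7633, 3490, 2894, 2069 and 470 counts in 6 wells, then 80 or fewer in all others. The well with 22956 counts, WT cell 43, alone held 57.5% of the WT total of Adcy6. In Renin-null wells the highest counts were 4323 (cell 1), 3429 (cell 35), 2838 (cell 95), 1830 (cell 49) and 1597 (cell 47), and cells 47 and 95 are a near-identical pair. The 6 WT and 10 Renin-null wells with at least 100 counts make 11.8% and 10.4% of the wells, while the share with at least 10 counts was 35.3% in WT (18 wells, interval 22.4% to 49.9%) and 18.8% in Renin-null wells (18 wells, interval 11.5% to 28.0%, and 16 of 92 with near-identical wells counted once).

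Adcy5 (chr16:35154877-35305738, plus strand) was second to Adcy6 by summed counts in WT, with 10661 against 39936. In Renin-null wells Adcy6 had 16573, and Adcy5 was first with 30808. Its count ran from 0 to 3522 with a median of 0 in WT, from 0 to 22673 with a median of 0.5 in YFP1, and from 0 to 632 with a median of 0 in YFP2. The WT wells with at least 10 counts held 3522, 3072, 1835, 1580, 438, 162 and 16 counts, so no single well dominated. In YFP1 the wells at 10 counts or more held 22673, 4088, 222, 204, 118 and 47, and Renin-null cell 21 with 22673 counts held 73.6% of the Renin-null total of Adcy5. In YFP2 there were 10 such wells, from 65 to 632 counts, and none stood apart. At least 10 counts were found in 7 of 51 WT wells (13.7%, interval 5.70% to 26.3%) and 16 of 96 Renin-null wells (16.7%, interval 9.84% to 25.7%), or 15 of 92 with near-identical wells counted once.

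Adcy3 had a count in 5 of 51 WT and 41 of 96 Renin-null wells. It had at least 10 counts in 2 WT wells, at 257 (cell 10) and 108 (cell 28), and in 15 Renin-null wells, 4 of YFP1 and 11 of YFP2, where 10 wells each had Adcy5 and Adcy6 at that count. With near-identical wells counted once, 14 Renin-null wells remained. Nearly all Renin-null counts lay in cell 91 with 4103 and cell 5 with 3133, and the next well held 53. Cell 5 also held 19218 of the 19410 Cenpo counts, the gene that overlaps Adcy3 on the other strand, so its Adcy3 count is uncertain, while cell 91 held 0 Cenpo counts. Cell 5 had 1013667 counts, 65.3% of them mitochondrial, and cell 91 had 7102259, with 5.45% mitochondrial.

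Adcy4 (chr14:55769057-55784095, minus strand), an isoform known from endothelium, was detected at 10 counts or more in 3 WT wells, at 3422, 310 and 11 counts, and 5 Renin-null wells, at 633, 572, 532, 229 and 29. WT cell 18 with 3422 counts held 91.1% of the WT total. The endothelial genes summed to 16.1 CPM in that well, to 3.08 CPM in Renin-null cell 79 with 633 Adcy4 counts and to 9275 CPM in Renin-null cell 83 with 229, where their part in the Adcy4 count was not tested. The Renin-null wells with 572 and 532 counts are cells 96 and 48, a near-identical pair with 11146 and 10121 genes detected and with proximal tubule genes at 2123 and 2928 CPM, and counting that pair once leaves 4 Renin-null wells with Adcy4.

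Adcy9 (chr16:4287529-4420498, minus strand) was found at 1572, 1366, 534, 232 and 101 counts in 5 WT wells. It was found at 1543, 1016, 987, 256, 92 and 12 counts in 6 Renin-null wells, where 1016 and 987 come from cells 48 and 96, so 5 wells remain with near-identical wells counted once. All 5 WT wells with Adcy9 also held Adcy6 at 10 counts or more, against 2 of the 6 Renin-null wells.

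The remaining calmodulin-responsive and beta-gamma-stimulated isoforms were rare. Adcy8 (chr15:64697084-64922296, minus strand) had 42 counts in WT cell 35 and 1914, 56 and 12 counts in Renin-null cells 21, 67 and 25. Cell 21, which also held the highest Adcy5 and Adcy9 counts of the Renin-null wells, accounts for 95.2% of the Renin-null total of Adcy8. Adcy7 (chr8:88272403-88329962, plus strand), known from blood cells, had 11 counts in WT cell 35 and at least 10 counts in 7 Renin-null wells, led by 355 in cell 35 and 188 in cell 66. The macrophage genes were at 34.1 CPM in Renin-null cell 35 and at 0 CPM in Renin-null cell 66. Adcy1 (chr11:7063489-7178506, plus strand), a neuronal isoform, was at 0 in all 51 WT wells. With 3 of 51 wells as the limit, this allows a share of up to 5.88%, and the exact interval allows up to 6.98%. Adcy1 had 26 counts in Renin-null wells, of which 20 lay in cell 59, a well with podocyte genes at 12661 CPM.

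The summed levels were then compared between the genotypes as the log2 ratio of CPM, Renin-null over WT. Of the 9 members, 4 were more than 2-fold higher in Renin-null wells (Adcy1, Adcy3, Adcy7 and Adcy8), where 52.4% of the 18720 genes with a ratio were, and 2 were more than 2-fold lower (Adcy4 and Adcy6), where 18.5% of genes were. The median gene had a log2 ratio of 1.17, and the median of the 9 members was 0.52. Set against the median gene, 3 members were higher (background 37.6%) and 4 lower (background 34.6%), with Gnas and Adcy9 joining the lower ones and Adcy1 leaving the higher ones. In YFP1 alone, 4 of 8 members with a ratio were more than 2-fold higher (background 45.7%) and 2 lower (background 27.4%), and in YFP2 alone 3 of 9 higher (background 49.8%) and 3 lower (background 22.7%). These shares are near the background and show nothing particular to the members.

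Adcy6 was 4.86-fold lower in Renin-null wells, at 41.6 CPM against 202 CPM in WT wells, a log2 ratio of -2.28. Its exact interval (-2.31 to -2.25) treats counts as independent and holds no spread between wells, while WT cell 43 held 57.5% of the WT counts. The ratio was -1.63 in YFP1 and -3.22 in YFP2. Without the highest well of each genotype it was -1.48, and with near-identical wells counted once it was -2.46. Counted once, with pairs across the libraries kept in YFP1, Adcy6 was at 5.53 CPM in YFP2, against 21.6 CPM with all wells. Adcy6 was the one member more than 2-fold lower in each Renin-null library and also without its highest wells. Adcy5 had no common direction: 53.9 CPM in WT wells against 77.3 CPM in Renin-null ones gave a log2 ratio of 0.52, with 1.49 in YFP1, -1.78 in YFP2 and -0.82 without the highest wells, and it was 0.59 with near-identical wells counted once. Adcy3 was at 1.91 and 19.2 CPM, a log2 ratio of 3.33, with 3.24 in YFP1 and 3.40 in YFP2, but each of these rested on 1 well, which held 95.7% of the YFP1 and 93.98% of the YFP2 counts.

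Adcy4 had a level of 19.0 CPM over WT wells and of 5.04 CPM over Renin-null ones, a log2 ratio of -1.91, with -6.66 in YFP1 on 34 counts and -1.06 in YFP2 (cell 48, with 532 counts, taken as YFP2), and its direction turned to 1.03 without WT cell 18 and Renin-null cell 79, while it was -2.29 with near-identical wells counted once. Adcy9 was at 19.3 and 9.82 CPM, a log2 ratio of -0.97, with -0.96 in YFP1, -0.99 in YFP2 and -1.31 with near-identical wells counted once. These library values rest on few wells. Cell 21 held 85.5% of the YFP1 counts of Adcy9, and cells 48 and 96 held 1016 and 987 of the 2112 YFP2 counts. The steep ratios belong to the rare isoforms: 4.54 for Adcy8 (0.217 and 5.04 CPM), which was 5.62 in YFP1 and 0.61 in YFP2, and 4.46 for Adcy7 (0.0809 and 1.78 CPM), which was 5.05 and 3.67. For Adcy1, against a floor of 3 counts over the WT wells, Renin-null wells were at least 4.30-fold higher, but on 26 counts, of which YFP1 held 1 and cell 59 of YFP2 held 20. Without cell 59 the log2 ratio against that floor was -0.01, so the difference rests on 1 well.

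**Figure D2:**
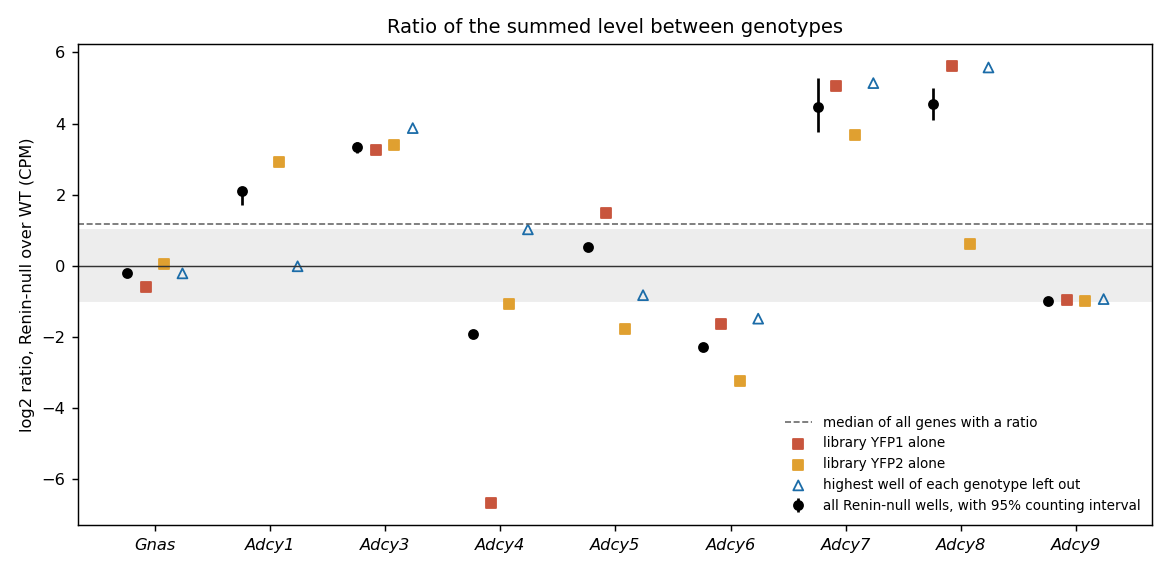
Log2 ratio of summed CPM, Renin-null over WT, for each member. Black marks all Renin-null wells, with a 95% interval that treats counts as independent (lower arm only for the Adcy1 bound). Squares mark each Renin-null library alone, and triangles leave out the highest well of each genotype. The band covers ratios within 2-fold and the dashed line is the median gene at 1.17. Adcy6 lies below the band in all 4 versions, while Adcy4 and Adcy5 lie on both sides of 0.

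Most wells held no cyclase at 10 counts or more. Any of the 8 isoforms reached that count in 20 of 51 WT wells (39.2%, interval 25.8% to 53.9%) and 43 of 96 Renin-null wells (44.8%, interval 34.6% to 55.3%), 18 of 48 in YFP1 and 25 of 48 in YFP2. The median number of isoforms per well was 0 in both genotypes. Among the wells with any, 12 WT and 27 Renin-null wells held 1 isoform, 3 and 9 held 2, and 5 and 7 held 3 or more, with 5 as the most in 1 well of either genotype. Detection moved with depth: an isoform was found in 17 of the 25 WT wells above the median total and in 3 of the 26 others, and in 33 of 48 and 10 of 48 Renin-null wells. After thinning to 62000 counts, a cyclase had at least 1 count in 20 of 49 WT wells (40.8%, interval 27.0% to 55.8%) and 34 of 83 Renin-null wells (41.0%, interval 30.3% to 52.3%). Gnas, the activator, was also at 10 counts or more in 18 of the 20 WT and 38 of the 43 Renin-null wells with a cyclase, and in 15 of 31 and 30 of 53 wells without one.

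Levels of different genes were compared per length, as CPM per kilobase of the median coding transcript of each gene. For Adcy6 this transcript has 2160 bases, fewer than its longest coding sequence of 3504, which raises its level per length. By this level, the leading isoform of a WT well was Adcy6 in 16 of 20 wells, Adcy5 in 3 and Adcy4 in 1. In Renin-null wells it was Adcy6 in 15 of 43, Adcy5 in 11, Adcy3 in 8, Adcy9 in 3, Adcy7 and Adcy8 in 2 each, and Adcy1 and Adcy4 in 1 each. By library, Adcy6 led 8, Adcy5 5 and Adcy3 1 of 18 wells in YFP1, and Adcy6 led 7, Adcy3 7 and Adcy5 6 of 25 wells in YFP2. With near-identical wells counted once, Adcy6 led 13 of 40 Renin-null wells, Adcy5 11, Adcy3 8 and Adcy9 2, and in YFP2 Adcy3 led 7 of 22 wells and Adcy6 5. With the longest transcript as the length, Adcy6 led 14 of 20 WT wells, Adcy5 4, and Adcy3 and Adcy4 1 each, and Adcy6 led 13, Adcy5 12 and Adcy3 8 of the 43 Renin-null wells. At a limit of 100 counts, Adcy6 led 6, Adcy5 2 and Adcy4 1 of 9 WT wells, and Adcy6 led 11, Adcy5 7, Adcy9 3, Adcy3 2 and Adcy4 1 of 24 Renin-null wells. The limit of 100 counts was chosen after the values were seen.

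Adcy5 and Adcy6, the calcium-inhibited isoforms, occurred together in some wells and apart in others. At 10 counts, 5 of the 7 WT wells with Adcy5 and of the 18 with Adcy6 held both, and 4 of the 16 Renin-null wells with Adcy5 and of the 18 with Adcy6. At 100 counts, 4 of 6 WT wells with Adcy5 also held Adcy6, and none of 12 Renin-null wells did. The WT wells with both at 100 counts were cells 43, 33, 10 and 6, which held between 8874774 and 17124854 counts, and WT cell 10 had 10791 genes detected. Whether 1 cell or more was captured in such a well was not tested.

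**Figure D3:**
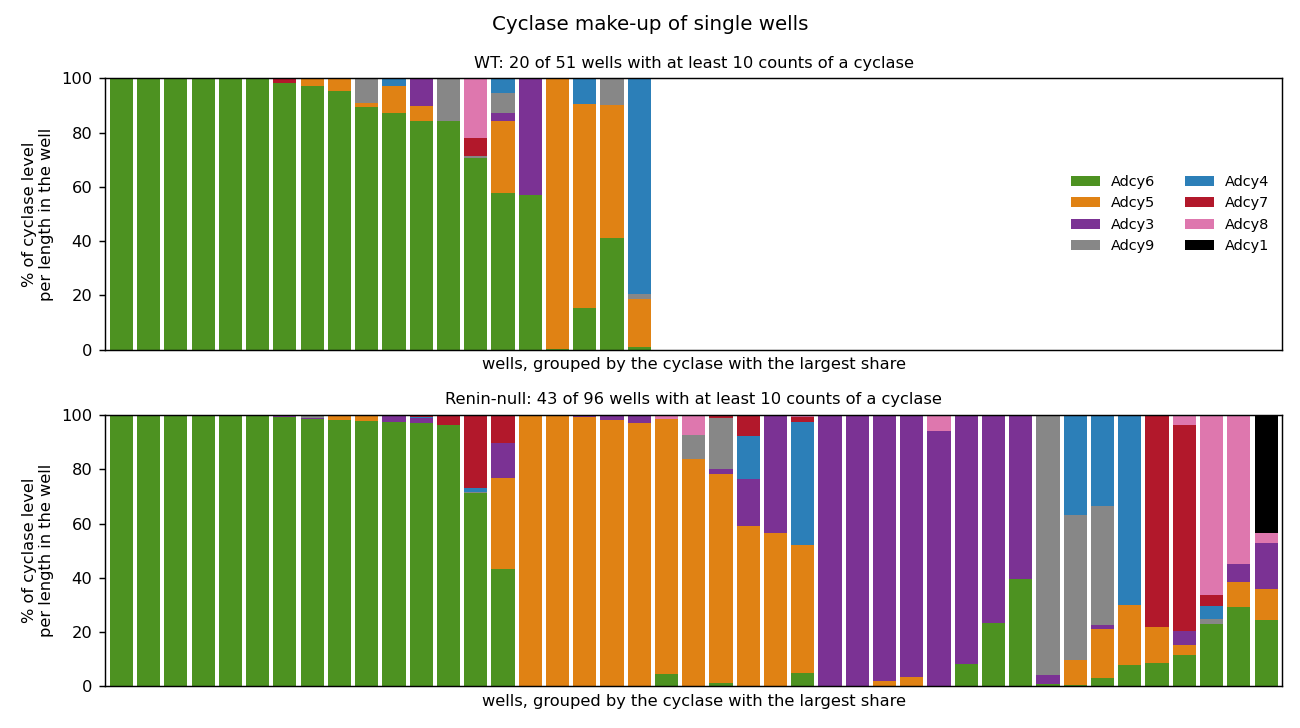
Each bar is 1 well with at least 10 counts of a cyclase, 20 WT wells above and 43 Renin-null wells below, split by the percent of the cyclase level per length held by each isoform and grouped by the leading isoform. Adcy6 leads 16 of 20 WT bars, while Adcy6, Adcy5 and Adcy3 lead 15, 11 and 8 of the 43 Renin-null bars. The length is the median coding transcript, and with the longest transcript Adcy6 leads 14 of the WT and 13 of the Renin-null wells.

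Pooled over wells, Adcy6 made up 83.9% of the summed cyclase level per length in WT, Adcy5 6.90%, Adcy4 4.95% and Adcy9 3.85%. In Renin-null wells the shares were 49.3% for Adcy6, 28.3% for Adcy5, 10.5% for Adcy3, 5.59% for Adcy9 and 3.75% for Adcy4. The libraries differed in this: Adcy5 held 36.0% in YFP1 and 10.4% in YFP2, Adcy3 6.41% and 19.8%, and Adcy4 0.0908% and 12.2%, with cell 48 taken as YFP2. When each well was given equal weight, by the mean over wells of CPM, Adcy3 held 25.7% in Renin-null wells, Adcy5 25.4% and Adcy6 37.0%, and the highest Adcy3 level in that mean was the 3091 CPM of cell 5, the well with the Cenpo counts. By summed CPM, Adcy5 and Adcy6 together made 90.8% in WT and 77.6% in Renin-null wells, with 86.5% in YFP1 and 56.9% in YFP2. Adcy6 was the highest isoform in each library on this scale, at 50.6% in YFP1 and 46.5% in YFP2. In YFP2 this rested on the near-identical wells. With each pair counted once, and pairs across the libraries counted in YFP1, Adcy6 held 19.2% of the YFP2 level and Adcy3 36.3%. That Adcy3 share rests on 1 well, since cell 91 held 93.98% of the YFP2 counts of Adcy3 with all wells. Over all Renin-null wells, with each pair counted once, Adcy6 held 46.1% and Adcy5 31.4%. The choice of length matters for the Adcy6 share, since the median coding transcript of Adcy6 has 2160 bases and the longest 6038. Its longest coding sequence has 3504 bases, so the median transcript is too short to hold it and raises the Adcy6 share. With the longest transcript, Adcy6 was at 65.7% in WT and 26.3% in Renin-null wells, where Adcy5 was then higher at 42.1%. By library, Adcy5 and Adcy6 held 53.8% and 27.1% in YFP1 with that length, and 15.3% and 24.5% in YFP2. Renin-null cell 21, a well of YFP1, held 73.6% of the Renin-null Adcy5 counts. With all wells, Adcy6 thus lay above Adcy5 with either length in WT and in YFP2, but not in YFP1 or over both Renin-null libraries. Per kilobase of the median coding transcript, Gnas lay above every cyclase, at 229 CPM in WT and 198 in Renin-null wells. Adcy6 was at 93.4 and 19.2 there, and Adcy5 at 7.69 and 11.0. With the longest transcript, Gnas was at 131 and 114, Adcy6 at 33.4 and 6.88, and Adcy5 again at 7.69 and 11.0.

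Low cyclase counts in the WT library followed the sequencing indexes. Of the WT wells below 1000 Adcy6 counts, 31 of the 38 that share an index with a well above that count had an Adcy6 count, and 2 of the 8 that share none. The same split was 10 of 14 and 3 of 36 for Adcy4, 17 of 29 and 3 of 18 for Adcy5, and 11 of 27 and 2 of 22 for Adcy9. In the Renin-null libraries it went either way, with 12 of 28 and 6 of 16 for Adcy6 in YFP1 and 9 of 14 and 14 of 33 in YFP2, 1 of 14 and 7 of 33 for Adcy8 in YFP1, and 0 of 14 and 7 of 33 for Adcy9 in YFP2. The part of shared indexes in the 12 WT wells with 10 to 80 Adcy6 counts was not tested. These wells enter the count of 18 WT wells and most of the 16 that Adcy6 led. Some of them also enter the 73.3% of the filtered WT wells with Adcy6.

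The near-identical pairs show how far a cyclase count repeats. High counts came back in the second well: 473 and 787 Adcy6 counts in cells 46 and 94, 1597 and 2838 in cells 47 and 95, and 532 and 572 Adcy4 counts and 1016 and 987 Adcy9 counts in cells 48 and 96. Gnas did the same, with 13862 and 11392 counts in cells 45 and 93. Cells 48 and 96 differ in depth, with 3944685 and 8860613 counts in total. Per depth, Adcy4 was at 134.9 and 64.6 CPM there and Adcy9 at 257.6 and 111.4 CPM. Adcy5 had 270 and 632 counts in that pair, which are 68.5 and 71.3 CPM. Low counts repeated less well: cells 46 and 94 had 7 and 25 Gnas counts, cells 48 and 96 had 2 and 39 Adcy3 counts and 5 and 32 Adcy6 counts, and cells 47 and 95 had 0 and 10 Adcy3 counts.

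**Figure D4:**
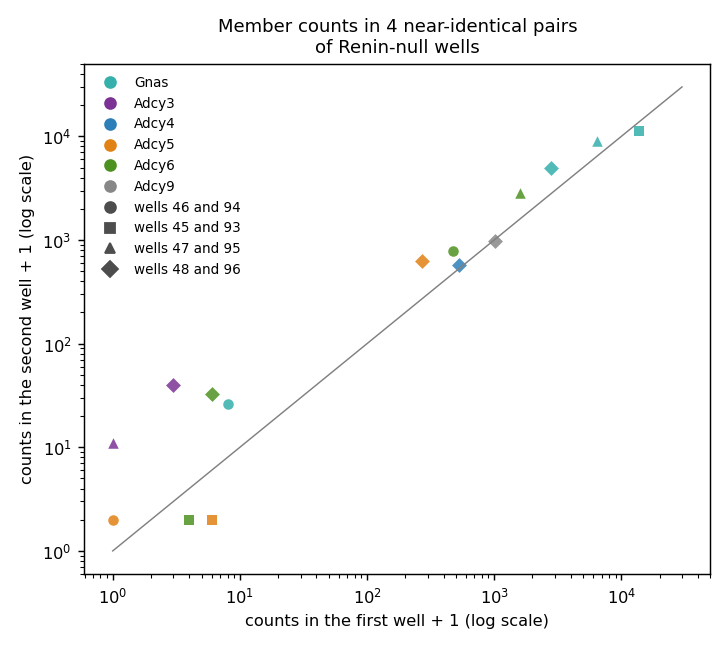
Counts plus 1 of each member in the first and second well of 4 near-identical Renin-null pairs, on log scales, with the line of equality. Points above 200 counts in both wells lie nearer the line than Adcy3 at 2 and 39 and Adcy6 at 5 and 32.

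The rest of the pathway was read from lists of 104 genes, of which 98 had a ratio. Of these 45 were more than 2-fold higher in Renin-null wells and 15 lower, with a median log2 ratio of 0.86, beside 52.4%, 18.5% and 1.17 for all genes. Of the cyclases outside the members, Adcy2, a beta-gamma-stimulated isoform, had 9 WT and 616 Renin-null counts, 590 of them in cell 3, and Adcy10, the soluble cyclase, had 69 and 86.

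Receptors coupled to the stimulatory G protein summed to 1325 CPM over WT wells and to 514 CPM over Renin-null wells, and 5 of 15 were more than 2-fold higher and 6 lower. The sum turned on Glp1r, since the other receptors summed to 348 CPM over WT wells and to 410 CPM over Renin-null wells, 559 in YFP1 and 285 in YFP2. Glp1r, the receptor of the incretin GLP-1, had the smallest ratio of those at 10 CPM or more, with 977 and 104 CPM, a log2 ratio of -3.23, with -9.98 in YFP1 and -2.36 in YFP2. It had at least 10 counts in 35 WT and 11 Renin-null wells, and Renin-null cell 81 held 85.1% of the Renin-null counts. Adrb3, a beta-adrenergic receptor, had the largest ratio at 10 CPM or more, 1.47, with 4.09 and 11.3 CPM. Of the receptors coupled to inhibitory G proteins, 2 of 6 were higher and 1 lower, with Adra2b, an alpha-2 adrenergic receptor, at 1.53 and Adora1, the adenosine A1 receptor, at -3.07. Adora1 had 0 counts in YFP1, where the floor of 3 counts over the library allows a log2 ratio of at most -9.58, and it was at -2.19 in YFP2, with 96.5% of its counts there in cell 69.

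Among the other G protein subunits, 3 of 5 inhibitory alpha subunits were higher and none lower: Gnao1 had a log2 ratio of 5.42 (0.263 and 11.2 CPM) and the abundant Gnai2 one of 0.02 (117 and 119 CPM). The other alpha subunits had 2 of 6 higher, from Gna14 with 0 WT counts, 4910 of whose 4919 Renin-null counts lay in cell 19, to Gna11 at -0.10. The beta and gamma subunits had 4 of 9 higher and 2 lower, with Gnb2 at 2.93 (1.04 in YFP1 and 3.61 in YFP2) and Gng10 at -2.07 (-4.70 and -1.31). The regulators had 3 of 15 higher and 3 lower. They include Ric8b, a chaperone of the stimulatory alpha subunit, at 1.89 (3.01 in YFP1 and -3.36 in YFP2), and its relative Ric8a at -3.95, with 87.1% of its WT counts in cell 43, the well that also led Adcy6.

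The lists downstream of the cyclases are read against the 52.4% of all genes that were more than 2-fold higher and the 18.5% that were lower. Of 14 phosphodiesterases, the enzymes that break down cyclic nucleotides, 11 were more than 2-fold higher in Renin-null wells and none lower, with a median log2 ratio of 4.87. Pde3a, the smallest, was at 380 and 275 CPM, a ratio of -0.47, and was found at 10 counts or more in 27 WT and 53 Renin-null wells. Pde8a, the largest, had 1 WT count and 4704 Renin-null counts, of which 64.8% lay in 1 well. Of 11 protein kinase A and Epac genes, 8 were higher and none lower. Those at 10 CPM or more in either genotype ran from Pkia, the kinase inhibitor peptide, at 5.15 to Prkaca, a catalytic subunit, at 0.54. Of 7 anchoring proteins in the files, 1 was higher and 2 lower, with Akap13 at 1.75 and Akap7 at -2.96. Of 8 genes of the CREB family and its coactivators, 5 were higher and 1 lower, with Crtc1 at 7.83 and Creb1 at -1.15.

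Likeness to other genes across wells differed between the libraries. The Spearman correlation of log2(CPM + 1) was taken within each library over wells with at least 100000 counts (48 WT, 40 YFP1 and 43 YFP2) against 6107 genes, for the members with a count in at least 20% of wells of every library. Among the genes with the highest mean correlation, Gnas had 0.468 with Cox6a1, a respiratory chain subunit, and 0.455 with Actn1, an actin crosslinker. For Adcy6 the highest mean correlation was 0.533 with Cltc, the clathrin heavy chain, then 0.482 with Kansl1 and 0.474 with C2cd2. For Adcy5 it was 0.436 with Zfp113, 0.431 with Reep5 and 0.426 with Kank1. By library, Adcy6 with Cltc was at 0.741 in WT, 0.281 in YFP1 and 0.576 in YFP2. Adcy5 was at 0.267, 0.459 and 0.581 with Zfp113, and at 0.665, 0.277 and 0.353 with Reep5. The wells of a library share depth and detection, and the median over all genes was 0.142 for Gnas, 0.155 for Adcy5 and 0.178 for Adcy6. With the number of genes detected, the correlation was 0.555 for Gnas, 0.630 for Adcy5 and 0.567 for Adcy6 in WT, 0.063, 0.153 and 0.292 in YFP1, and 0.230, 0.389 and 0.432 in YFP2. Gnas with the mitochondrial share was at -0.456 in WT, -0.312 in YFP1 and -0.004 in YFP2. With the summed smooth muscle genes it was 0.563 for Gnas, 0.590 for Adcy5 and 0.412 for Adcy6 in WT, 0.228, 0.215 and 0.127 in YFP1, and 0.3895, 0.422 and 0.369 in YFP2. The correlation between Gnas and Adcy6 was 0.386 in WT, 0.041 in YFP1 and 0.325 in YFP2, and between Gnas and Adcy5 0.285, -0.249 and 0.286.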

How the data were processed

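Per the labels and the study's methods, the authors ran FastQC 0.11.5, Trimmomatic 0.39 and Salmon 0.11.2 on GRCm38.p6, and took gene values with tximport and lengthScaledTPM. The values deposited are expected counts per gene and well, which keep depth and carry a correction for transcript length. Whether the WT and Renin-null tables were scaled together is not given in the sources used here, and its effect on ratios between them was not tested. They were rounded to whole numbers, summed over the wells of a genotype and scaled to CPM. Poisson, conditional and Clopper-Pearson intervals (95%) were exact. A ratio needed more than 3 counts in either genotype, and 3 counts over the group stood in for a count of 0. Coordinates and lengths are from GENCODE M21. The ratio was tested on simulated summed counts with counting error only. These held no spread between wells, so the test does not reach ratios that rest on few wells. Python 3.11.15 and R 4.3.3 with edgeR 4.0.16, DESeq2 1.42.0 and sctransform 0.4.2 gave the alternatives. The members and lists were chosen with earlier results of these data known. All 9 members were named, with the largest and smallest ratio of each pathway list at 10 CPM or more in either genotype, and the 3 genes of highest mean Spearman correlation, of which 1 is not reported here.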

Additional observations from a re-analysis of the deposited data

How the results depend on the processing

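No paired analysis was possible because each genotype is 1 sample and the numbers name wells. The count of members more than 2-fold higher in Renin-null wells, 4, was between 3 and 4 under every alternative except the difference of mean log2(CPM + 1), where it was 0. The count lower, 2, was 1 for the mean over wells of CPM, for the difference of mean log2(CPM + 1), for SCTransform-corrected counts and without the highest well of each gene, 4 with median-of-ratios factors or centring on the median gene, and 2 or 3 otherwise. Without the highest wells Adcy4 turned to 1.03 and Adcy1 to -0.011, a bound on 6 counts. Adcy6 stayed below -1 under all 15 alternatives (-3.45 to -1.21), and Adcy3, Adcy7 and Adcy8 stayed above 0, while Gnas (-1.38 to 0.74) and Adcy5 (-1.78 to 1.95) took either sign. The median number of isoforms per well, 0 in both genotypes, was 2 in both at 1 count, and 2 in WT and 1 in Renin-null wells among the 15 and 57 wells with at least 100000 counts, 1000 genes and at most 25% mitochondrial counts. It was 0 at 10 CPM, after thinning, and at 100 CPM or 100 counts, limits chosen after seeing the data, as was leaving out wells of over 9000 genes. For a member at 0 in most wells, depth limits what a 0 means.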
